A study of Mus musculus with 6 samples.

Results

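Early repair of mouse skin was examined by comparing wounds taken 4 days after injury with intact skin. The comparison holds 4 of the 6 arrays in the series, the 2 of day 4 wounds and the 2 of intact skin, chosen by their titles, and covers 19938 genes. The remaining 2 arrays, of day 1 wounds, give a reference for what was already different soon after injury. All mice were inbred BALB/c males, an albino strain, aged 5 to 6 weeks. A wounded animal carried 2 back wounds of 4 mm on a shaved and disinfected site, cut through epidermis, dermis and subcutis down to the fascia. Biopsies of 8 mm were taken from wounds and from intact skin, so a wound sample also holds the skin around the wound. The labels do not say whether the intact skin came from unwounded animals, nor whether a sample was 1 animal or a pool. The replicates are called biological, and the p-values measure only the spread between these samples.

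A skin wound is first filled by a clot and entered by neutrophils, then by monocytes that become macrophages. Keratinocytes at its edge switch to stress keratins and migrate over the defect, while fibroblasts and new vessels build granulation tissue and lay down collagen. Hair follicles, fat, nerve and the thin muscle layer under mouse skin are cut by the same wound, and each has its own repair programme.

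RNA integrity numbers lay between 7.7 and 9.1, and the arrays' median log2 intensities between 6.89 and 6.93. The keratinocyte gene Krt5 read 12.60 and 12.67 in intact skin and 12.68 and 12.67 on day 4, the dermal collagen gene Col3a1 10.64 or more on every array, and the endothelial gene Pecam1 7.96 or more (its day 4 call and that of Col3a1 were lost without intact replicate 1). All values below are log2 intensities, a difference of 1 is a doubling, and a gene passed where the limma test gave an adjusted p under 0.05. A biopsy mixes cell types, so more or fewer cells of a type and more or less RNA per cell cannot be told apart. Over all genes the intact replicates correlated at 0.9967 and the day 4 replicates at 0.9861. Of the genes, 143 lay more than 1 log2 apart on the day 4 arrays, 135 of them lower on replicate 2, and 61 of the 143 were keratin or keratin-associated genes. In intact skin 20 genes lay that far apart.

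On day 4, 2958 genes (14.8%) were higher than in intact skin and 2413 (12.1%) were lower, with a median difference of −0.03 over all genes. Most of these differences were under 2-fold. A rise of at least 2-fold was reached by 755 genes and of at least 4-fold by 203, and falls of these sizes by 348 and 80 genes. Both counts fell when any 1 array was left out, and most without an intact array. Such a fit leaves 1 array in a group and has fewer residual degrees of freedom. A call lost without an array, here and below, may therefore reflect lost power and need not rest on that array.

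Much of the day 4 difference was already there on day 1, a comparison that shares the intact arrays. On day 1, 2927 genes (14.7%) were higher and 2915 (14.6%) lower than intact. Of the genes higher on day 4, 2178 (73.6%) had also passed as higher on day 1, which is 10.9% of all genes, and of those lower, 1842 (76.3%) had passed as lower, which is 9.24% of all. A further 771 higher and 569 lower genes had not passed on day 1. Directly between the wounds, 217 genes (1.09%) were higher on day 4 than on day 1 and 227 (1.14%) were lower. Genes that passed both this test and the test against intact in the same direction are called newly different here: 121 were newly higher (0.607%) and 19 newly lower (0.0953%). The counts between the wounds are less stable than those against intact skin. A gene named below as newly different, or as changed from day 1, may lose that call without 1 array. When 1 array was left out, the genes higher than on day 1 numbered between 4 (without day 1 replicate 2) and 67, and the genes lower between 5 (without day 4 replicate 1) and 117. The newly higher genes then numbered 4 to 34 and the newly lower ones 0 to 8.

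**Figure D1:**
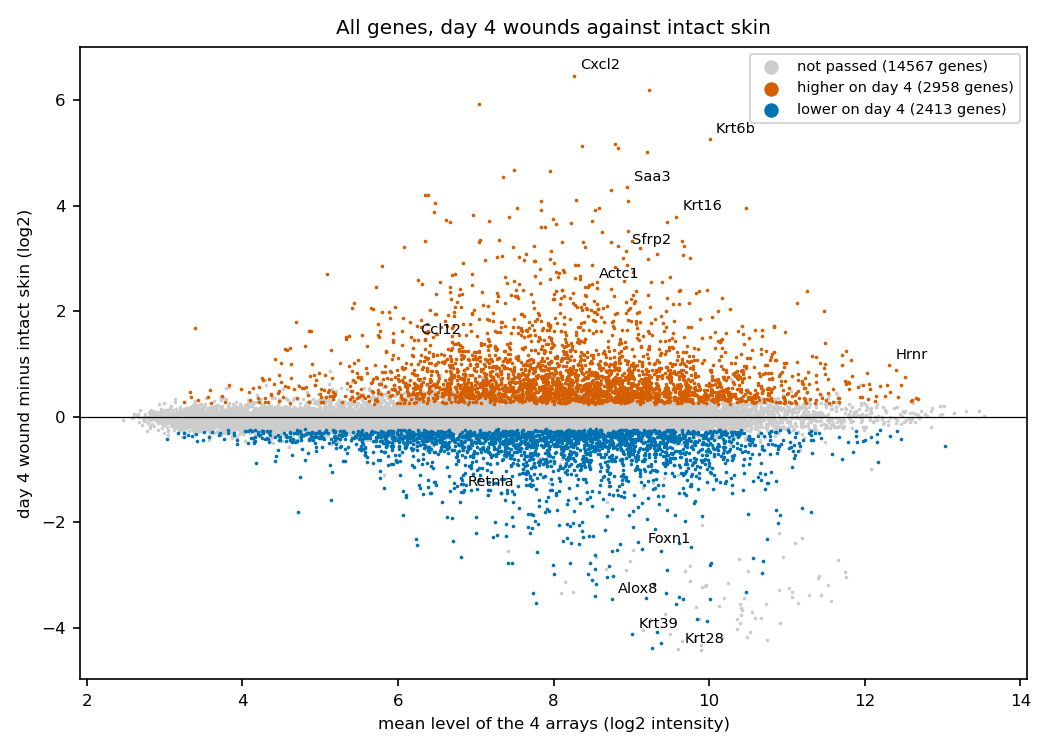
Each point is a gene, with its mean log2 intensity over the 4 arrays on the x axis and its log2 difference, day 4 wounds minus intact skin, on the y axis. Coloured points passed (2958 higher, 2413 lower). The largest rises named in the text, Cxcl2 (labelled), Ccl3 and Clec4e (not labelled), reach differences of 6.46, 6.20 and 5.92.

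Genes were grouped in 34 lists by cell type or function. Counts of members that passed are set beside the 14.8% of all genes that were higher and the 12.1% that were lower. List medians are set beside −0.03. The lists were chosen with earlier results of these data known, so these comparisons describe the lists and test nothing. On both day 4 arrays the largest positive medians belonged to neutrophil, macrophage, interferon-stimulated and chemokine genes, and the largest negative median to hair genes.

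**Figure D2:**
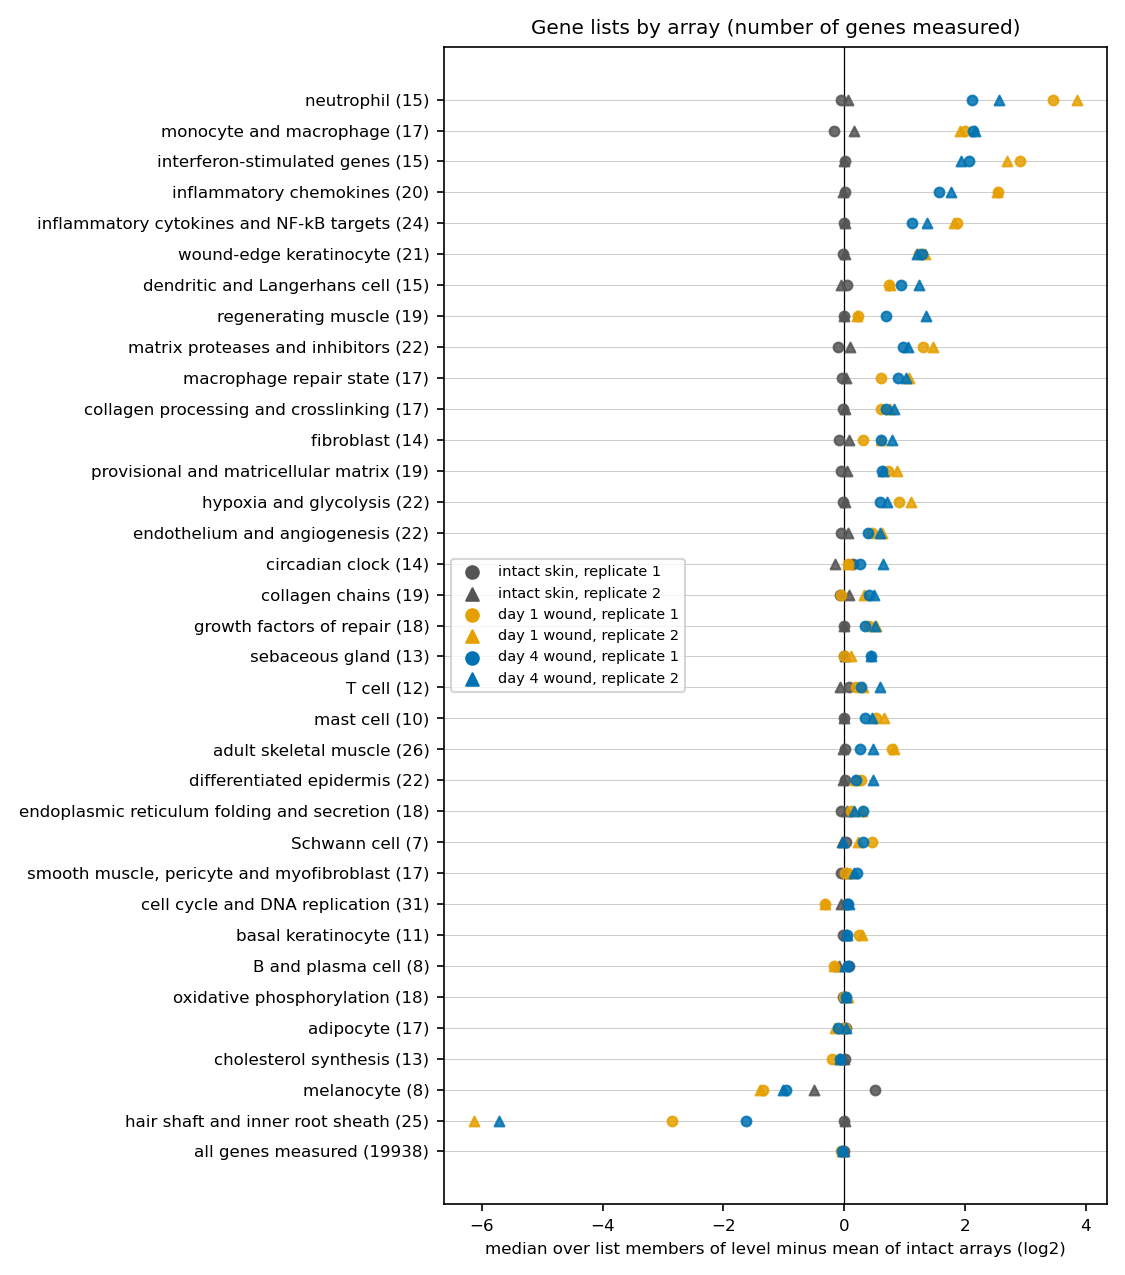
Each row is a gene list and each point the median over its genes of the log2 intensity on an array minus the mean of the intact arrays, on the x axis. The neutrophil list lies at 2.12 and 2.56 on the day 4 arrays and the hair list at −1.63 and −5.72, while cell cycle genes lie near 0, with a median difference of 0.07.

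Genes of inflammation and of the wound-edge epidermis were among the largest rises. Cxcl2, a neutrophil-attracting chemokine, read 4.85 and 5.21 in intact skin and 11.42 and 11.56 on day 4, an 88.0-fold rise (log2 difference 6.46, SE 0.16, adjusted p = 2.34e-05). Ccl3, a chemokine of the innate response, read 5.79 and 6.47 in intact skin and 12.22 and 12.43 on day 4, a 73.3-fold rise. For both, the wound arrays lie close together and far above the intact arrays, and the day 1 arrays, at 11.55 and 11.92 for Cxcl2 and at 12.44 and 12.56 for Ccl3, are as high as those of day 4. Clec4e, a lectin receptor of myeloid cells that senses dead cells and mycobacterial lipid, read 4.05 and 4.11 in intact skin and 9.85 and 10.14 on day 4, 60.3-fold higher. It was lower on day 4 than on day 1 (−0.95, adjusted p = 0.0301).

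Il1b, the central cytokine of the inflammasome, rose 36.1-fold from 6.03 and 6.37 to 11.26 and 11.49. Acod1, whose enzyme makes itaconate in activated macrophages, rose 33.9-fold from 6.39 and 6.18 to 11.28 and 11.46. The Schlafen gene Slfn4 rose 32.3-fold and the acute phase gene Saa3 20.3-fold. The myeloid receptor genes Clec4d and Trem1 rose 25.5-fold and 25.1-fold. The naming rule required that the groups not overlap, which 29.98% of all genes met in the higher direction.

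The other 3 of the 12 largest rises include a keratin. Krt6b, a stress keratin of the wound edge, read 6.28 and 8.47 in intact skin and 12.63 and 12.65 on day 4 (log2 difference 5.27, SE 0.62, adjusted p = 0.00212). Its intact arrays are far apart, so its fold of 38.5 is the least certain of the 12. The stefin gene Stfa3, an inhibitor of cysteine proteases, rose 34.9-fold, and the gasdermin gene Gsdmc rose 23.2-fold. In each fit with 1 array removed all 12 passed, at an adjusted p of 0.0181 or less. Cxcl2 and Clec4e lay under the lower quartile (5.29 to 5.37) on both intact arrays, near the floor of the array, so their folds are approximate.

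**Figure D3:**
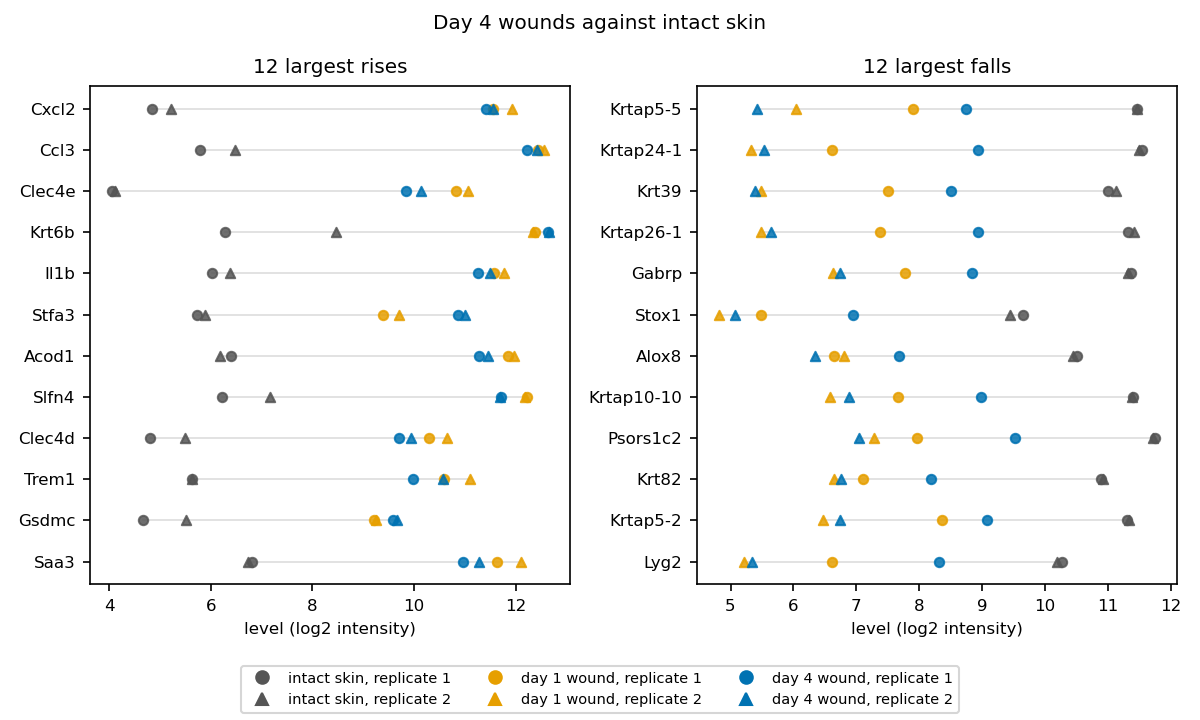
Log2 intensity on each array (x axis) of the 12 largest rises and the 12 largest falls of day 4 wounds against intact skin among named genes that passed (rows), with the group marked by colour and the replicate by shape. The rises have both day 4 arrays above both intact arrays, as the naming rule required, from 9.58 upwards. In the falls day 4 replicate 2 lies below replicate 1, for Krtap5-5 at 5.42 against 8.74.

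Of 15 neutrophil genes 9 were higher and none lower, with a median of 2.34 on day 4 and 3.66 on day 1. Without the dimmest 30% of genes the day 4 median was 3.35. S100a9 and S100a8, the subunits of the antimicrobial protein calprotectin, rose 19.7-fold (6.42 and 6.75 to 10.80 and 10.97) and 17.0-fold. The chemokine receptor Cxcr2 rose 13.5-fold, the cytokine receptor Csf3r 7.75-fold and Lcn2, which binds bacterial siderophores, 5.06-fold. The granule genes Mpo, Ltf, Elane, Camp and Ngp, which are transcribed mostly in the bone marrow, did not pass, with differences between −0.25 and 0.35. From day 1 to day 4 the list was lower for 3 members, Retnlg, Csf3r and Lcn2.

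All 17 monocyte and macrophage genes were higher, with a median of 2.15 on day 4 and 1.91 on day 1. Cd14, a co-receptor for bacterial lipopolysaccharide, read 6.22 and 6.55 in intact skin and 9.90 and 10.21 on day 4, a 12.7-fold rise, though it was below its day 1 level. The receptor of monocyte recruitment Ccr2 rose 6.08-fold, the macrophage marker Adgre1 5.92-fold and the growth factor receptor Csf1r 3.40-fold. C1qa and C1qc, chains of the complement recognition protein made by macrophages, went the other way in time. C1qa read 7.92 and 7.99 in intact skin, 8.91 and 9.14 on day 1 and 10.04 and 9.78 on day 4, with each group above the one before. C1qa and C1qc were the members of this list that passed as higher on day 4 than on day 1 (0.88 with adjusted p = 0.0305 and 0.57 with adjusted p = 0.0480).

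Of 17 genes linked to the repair state of macrophages 12 were higher and 2 lower (median 0.99). The mannose receptor Mrc1 rose 4.38-fold, from 8.17 and 8.76 to 10.51 and 10.68, the haemoglobin scavenger receptor Cd163 4.36-fold and the beta-glucan receptor Clec7a 8.28-fold. Arg1, the arginase of alternatively activated macrophages, rose 1.69-fold, a call that was lost without any of the intact or day 4 arrays (adjusted p up to 0.128). Retnla, a secreted protein of the same activation state, fell by 1.43 from 7.44 and 7.62 to 5.60 and 6.60, and its call was lost without either intact array (adjusted p up to 0.0895). Gpnmb, a membrane protein of macrophages and pigment cells, fell by 0.62.

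Of 20 inflammatory chemokine genes 19 were higher and none lower, with a median of 1.68 against 2.54 on day 1. Cxcl3 and Cxcl5, which like Cxcl2 attract neutrophils, rose 13.2-fold and 6.02-fold. The monocyte attractants Ccl2, Ccl7 and Ccl12 rose 3.96-fold, 4.91-fold and 2.74-fold. Cxcl1, the close relative of Cxcl2, read 7.79 and 7.30 in intact skin and 8.10 and 8.29 on day 4, 1.57-fold higher, and it passed in 1 of the 6 fits with 1 array left out, the one without intact replicate 1 (adjusted p up to 0.137). Its day 4 level was below that of day 1 by 1.07 (adjusted p = 0.0369), as were those of Cxcl5, Ccl2, Ccl12, Ccl5, Ccl20 and Ccl11, by 0.84 to 1.89. Ccl5 lost its call against intact skin without either intact array or day 4 replicate 2. Ccl22, a ligand of the T cell receptor Ccr4, was the member that was newly higher (5.90 and 5.81 in intact skin, 6.05 and 5.86 on day 1, 6.64 and 6.89 on day 4).

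The proximal promoters of the chemokines are shown because Cxcl2 and Cxcl1, neighbours on the chromosome, hold the same letters and differ in their change on day 4. The letters GGGNNTTTCC, a core of sites bound by NF-kB, were searched on both strands from 250 bases before to 50 bases after each start in the RefSeq sequences of build GRCm38.p6. They were present for 5 of 13 chemokine genes with a sequence (38.5%), for 6 of 18 cytokine and NF-kB target genes (33.3%) and for 1.83% of 15562 genes. In the stretches below, written 5′ to 3′ on the strand of the gene, capitals mark the matches. A match is a description of the letters and no evidence of binding here. The lists were chosen by known function, so their higher shares test nothing about these wounds.
Cxcl2, chr5:90903776-90903855, plus strand: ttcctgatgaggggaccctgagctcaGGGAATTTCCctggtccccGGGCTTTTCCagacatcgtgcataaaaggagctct
Cxcl1, chr5:90891130-90891209, plus strand: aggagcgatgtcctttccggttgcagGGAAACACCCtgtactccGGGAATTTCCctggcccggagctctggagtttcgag

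Of 24 cytokine and NF-kB target genes 18 were higher and none lower, with a median of 1.25 against 1.84 on day 1. Il33, an alarmin of barrier cells, rose 9.95-fold from 6.97 and 7.19 to 10.28 and 10.51. Ptgs2, the inducible cyclooxygenase, rose 8.49-fold, the cytokine genes Osm and Tnf 7.86-fold and 4.89-fold, and the inducible nitric oxide synthase gene Nos2 4.33-fold. The inhibitors of NF-kB signalling Tnfaip3 and Nfkbia rose 2.32-fold and 1.94-fold. Il10, Il19, Csf3 and Csf2 had passed as higher on day 1 and did not pass on day 4, with differences between 0.09 and 0.28. The list was lower than on day 1 for 8 members, among them Il6, Il1a, Socs3 and Tnfaip3.

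All 15 interferon-stimulated genes were higher on day 4, with a median of 1.99 against 2.87 on day 1. Rsad2, the antiviral enzyme viperin, read 6.19 and 6.29 in intact skin and 10.13 and 10.56 on day 4, a 17.2-fold rise. Ifit1 and Ifit3, which bind foreign RNA, rose 12.6-fold (6.30 and 6.11 to 9.81 and 9.90) and 9.95-fold (6.84 and 6.59 to 10.14 and 9.92). The transcription factor Irf7 rose 3.92-fold and the RNA sensor Ifih1, the smallest rise of the list, 2.21-fold. In each of them the groups are well separated and the replicates close. Between the wounds 5 members were lower on day 4, among them Oas2 (−0.58) and Usp18. The Ifit family holds close copies, such as Ifit3 and Ifit3b, whose probes may cross-hybridise.

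The promoters of 3 of these genes are shown because the whole list moved together. The letters GAAANNGAAA, the core of the element bound by interferon-activated factors, were searched in the same way. They were present for 6 of 10 listed genes with a sequence (60.0%) and for 3.89% of the 15562 genes. The list was chosen for its known response to interferon, so this share tests nothing about these wounds. Capitals mark the matches, here on the reverse strand and so read as TTTCNNTTTC.
Ifit1, chr19:34640759-34640838, plus strand: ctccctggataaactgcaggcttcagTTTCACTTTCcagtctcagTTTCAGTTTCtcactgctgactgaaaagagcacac
Ifit3, chr19:34583355-34583434, plus strand: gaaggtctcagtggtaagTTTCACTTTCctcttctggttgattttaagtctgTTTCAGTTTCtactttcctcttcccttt
Rsad2, chr12:26456528-26456607, minus strand: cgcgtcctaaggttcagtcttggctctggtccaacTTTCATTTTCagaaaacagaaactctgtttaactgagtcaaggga

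Other immune cells were followed by 4 lists. Of 15 dendritic and Langerhans cell genes 12 were higher and 1 lower (median 1.09, and 0.75 on day 1), with the lectin Clec10a and the costimulator Cd86 3.53-fold and 3.48-fold higher and the antigen-presenting genes H2-Eb1 and H2-Ab1 2.47-fold and 2.35-fold. Zbtb46, a transcription factor of classical dendritic cells, fell by 0.36, a call lost without either intact array or day 4 replicate 2. Of 12 T cell genes 5 were higher (median 0.40, but 0.80 without the dimmest 30% of genes and 0.59 without day 4 replicate 1), namely Il2ra, Icos, Cd3g, Cd4 and Cd2. The co-receptor Cd4 read 6.14 and 5.97 in intact skin, 6.14 and 6.28 on day 1 and 7.03 and 6.81 on day 4, so that its rise was new, whereas Cd8a read 6.09 and 5.83 in intact skin and 6.06 and 6.15 on day 4. Of 8 B and plasma cell genes, Jchain was higher (4.08 and 3.89 to 5.34 and 4.68) and Blnk lower, with a median of 0.04 that was −0.12 without intact replicate 2 and −0.43 without the dimmest 30% of genes. Jchain lost its call without either intact array. Of 10 mast cell genes 5 were higher and 1 lower (median 0.40), and without intact replicate 1, intact replicate 2 or day 4 replicate 2 the higher members numbered 2. Hdc, the histamine-forming enzyme that neutrophils and macrophages also express, rose 11.2-fold, the mast cell protease genes Cpa3 and Mcpt4 2.05-fold and 1.99-fold, and the receptor gene Kit fell by 0.96. Cpa3 lost its call without intact replicate 1 and Mcpt4 without intact replicate 2 or day 4 replicate 2.

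In the epidermis, of 21 wound-edge keratinocyte genes 15 were higher and 3 lower, with a median of 1.25 (1.17 on day 1). Krt16, the partner of Krt6 keratins in activated keratinocytes, read 7.66 and 7.70 in intact skin and 11.48 and 11.46 on day 4, a 13.8-fold rise (log2 difference 3.79, SE 0.07, adjusted p = 1.50e-05). Its replicates nearly coincide, and each wound array is above both intact arrays. Krt6a, already at 10.04 and 10.18 in intact skin, rose 2.37-fold. The small proline-rich gene Sprr2d rose 9.13-fold, the defensin Defb3 6.99-fold, the epidermal interleukin Il1f9 5.26-fold and the fibronectin receptor chain Itga5 3.20-fold. Krt17 did not pass (12.49 and 12.58 against 12.53 and 12.26). Sprr1a, Sprr2h and the gap junction gene Gjb2 fell by 0.56, 0.94 and 0.33, and without intact replicate 1, intact replicate 2 or day 4 replicate 2 only Sprr2h of these was still lower. The Sprr2, Stfa and Krtap families hold near-identical copies whose probes may cross-hybridise.

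Of 11 basal keratinocyte genes 5 were higher and 2 lower, with a median of 0.04 that turned to −0.01 under cyclic loess scaling. The integrin chain Itga6 rose 1.95-fold and Krt14 1.52-fold, while Cdh3 and Bnc1, an adhesion and a transcription factor gene shared with the follicle, fell by 0.84 and 1.07 (Bnc1 not without either intact array). The higher count was 2 without either intact array and 3 without any of the other arrays. Of 22 differentiation genes 10 were higher and 3 lower (median 0.33, and 0.19 without day 4 replicate 2). Repetin (Rptn) read 7.97 and 8.14 in intact skin, 7.07 and 6.44 on day 1 and 9.80 and 9.60 on day 4, so it was below intact early and 3.13-fold above it later. Casp14, the protease of cornification, read 9.85 and 9.67 in intact skin, 10.09 and 9.73 on day 1 and 11.02 and 11.25 on day 4. Hrnr and Lor, of the cornified envelope, rose 1.97-fold and 1.43-fold. Ivl, Tgm1 and Tgm3, an envelope protein and its crosslinking enzymes, fell by 0.78, 0.43 and 0.63. Lor lost its call without intact replicate 1 or day 4 replicate 2. The 10 became 6 without intact replicate 1 or day 4 replicate 2, and the 3 became 1 without these arrays or intact replicate 2.

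In the matrix, of 19 provisional and matricellular matrix genes 13 were higher and none lower (median 0.63, and 0.83 on day 1). Tenascin C (Tnc), a glycoprotein of healing and tumour stroma, rose 3.13-fold from 9.69 and 9.83 to 11.31 and 11.50. The small proteoglycan Lum rose 3.07-fold, the thrombospondins Thbs2 and Thbs4 2.68-fold and 2.64-fold, and the hyaluronan synthase Has2 2.51-fold. The fibronectin gene Fn1 read 10.69 and 10.93 against 11.19 and 11.40 and did not pass (adjusted p = 0.0718). Thbs1 had passed on day 1 and lay at 11.35 and 11.39 on day 4 against 11.31 and 11.60 in intact skin.

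Of 19 collagen chain genes 9 were higher on day 4 and none lower (median 0.45), where day 1 had 3 higher and 3 lower (median 0.11). Col14a1, a fibril-associated collagen, read 8.53 and 8.55 in intact skin, 8.48 and 8.35 on day 1 and 9.44 and 9.54 on day 4. Col5a2, of the collagen that starts fibrils, read 7.42 and 7.44, then 7.76 and 7.98, then 8.45 and 8.43. In both genes the day 4 arrays stand above all others. With Col5a1 they make up the 3 collagen chains that were newly higher, a class whose count fell when any 1 array was left out. Col3a1 rose 1.76-fold and Col6a3 2.20-fold, while Col1a1 read 11.50 and 11.78 against 12.27 and 12.19 and did not pass (adjusted p = 0.0752). The count was 4 without intact replicate 1, where Col3a1 and Col5a1 lost their calls, and 5 without day 4 replicate 2.

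Of 17 genes for collagen processing and crosslinking 13 were higher and none lower (median 0.76). The crosslinking oxidase Lox read 9.03 and 9.30 in intact skin and 10.61 and 10.71 on day 4, 2.82-fold higher. The prolyl hydroxylase chain P4ha1 rose 2.42-fold, the oxidase Loxl3 2.14-fold and the lysyl hydroxylase Plod1 1.99-fold, while Plod2 lay at 7.75 and 7.78 against 7.61 and 7.72. Without intact replicate 1 the count was 8. Of 18 genes for folding and secretion in the endoplasmic reticulum 6 were higher (median 0.26, and 0.16 without day 4 replicate 1), led by the retrieval receptor Kdelr3 (2.63-fold) and the coat protein Sec24d (2.03-fold). Only 2 members were higher without intact replicate 1, intact replicate 2 or day 4 replicate 1.

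Of 22 matrix protease and inhibitor genes 19 were higher and 1 lower, with a median of 0.99 (1.32 on day 1). Mmp13, a collagenase of mesenchymal cells, read 5.15 and 5.62 in intact skin and 8.81 and 8.57 on day 4, 9.88-fold higher, and Mmp8, the collagenase of neutrophils, was 14.6-fold higher. The gelatinase Mmp9 rose 6.70-fold, the stromelysin Mmp3 5.88-fold and the urokinase receptor Plaur 6.32-fold. Timp1, an inhibitor of these enzymes, rose 9.45-fold from 6.61 and 7.81 to 10.29 and 10.61. Timp3, which binds to matrix, fell by 0.71, a call lost without intact replicate 1. Mmp8, Adamts1 and Adamts4 were lower on day 4 than on day 1, with Adamts9 the fourth member to move that way.

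Of 18 growth factor genes 8 were higher and 2 lower (median 0.44). Hgf, a mesenchymal factor for epithelia, rose 2.73-fold from 5.44 and 5.62 to 6.94 and 7.02. Tgfb3 and Tgfb1 rose 1.90-fold and 1.74-fold and Vegfa, the vessel growth factor, 1.56-fold. Tgfa and Wnt5a, a ligand of the growth factor receptor of keratinocytes and a Wnt ligand of the follicle and dermis, fell by 0.86 and 1.23. Vegfa lost its call without any of the intact or day 4 arrays (adjusted p up to 0.178). Without intact replicate 1 the higher members were 3, and without intact replicate 2 or day 4 replicate 2 they were 4.

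Of 14 fibroblast genes 9 were higher and 1 lower (median 0.70), with the growth factor receptor Pdgfra 2.69-fold and the transcription factor Prrx1 1.86-fold higher. Dpp4, a marker of upper dermal and reticular progenitors, fell by 0.43 and lost its call without intact replicate 2 or day 4 replicate 2. The 9 became 4 without intact replicate 1 or day 4 replicate 2. Of 17 smooth muscle, pericyte and myofibroblast genes 6 were higher and 4 lower (median 0.18). The pericyte receptor Pdgfrb rose 2.04-fold and Rgs5 1.74-fold, while the contractile regulator Smtn fell by 1.25 and Tpm1 by 0.55. Acta2, the actin of myofibroblasts, read 10.66 and 10.79 in intact skin and 11.01 and 11.00 on day 4, 1.21-fold higher, a call lost without any single array (adjusted p up to 0.203). Tagln read 7.79 and 8.16 against 8.19 and 7.87. Higher members were 2 without intact replicate 1 and 3 without intact replicate 2 or either day 4 array, and lower members were 2 without intact replicate 1 and 1 without intact replicate 2 or day 4 replicate 2.

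Of 22 endothelial genes 12 were higher and none lower (median 0.49, and 0.52 on day 1). The apelin receptor Aplnr rose 2.11-fold, the junction genes Pecam1 and Esam 1.88-fold and 1.78-fold, and the TGF-beta co-receptor Eng 1.70-fold (8.92 and 9.03 to 9.69 and 9.79). The tip cell genes Esm1, Apln, Angpt2 and Dll4 did not pass, with differences between −0.05 and 0.26. Without intact replicate 1 the 12 became 3, with Aplnr and Pecam1 among those lost, and without day 4 replicate 2 they became 7. Of 22 hypoxia and glycolysis genes 17 were higher and none lower (median 0.62, and 1.02 on day 1). The glucose transporters Slc2a3 and Slc2a1 rose 9.38-fold (6.19 and 6.08 to 9.19 and 9.54) and 3.23-fold, and the lactate exporter Slc16a3 4.45-fold. Without intact replicate 1 the count was 11. None of 18 oxidative phosphorylation genes passed the limma test and 0 had an unadjusted p under 0.05, with differences between −0.17 and 0.17 (median 0.03), where 26.9% of all genes passed.

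Muscle genes split in time. Of 26 genes of adult skeletal muscle 15 were higher on day 4 (median 0.37), where 23 had been higher on day 1 (median 0.83). The calcium release channel Ryr1 read 8.59 and 8.65 in intact skin, 9.89 and 9.95 on day 1 and 9.51 and 9.80 on day 4. Myh4, a fast myosin, read 9.82 and 10.00, then 11.28 and 11.23, then 10.78 and 10.70, so day 4 lay between the other groups. The parvalbumin gene Pvalb was back at 9.44 and 9.83 against 9.85 and 9.73 in intact skin. The 15 became 4, 3 and 7 without intact replicate 1, intact replicate 2 and day 4 replicate 2.

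The list of regenerating muscle genes took the opposite course in its median. Of 19 such genes 13 were higher on day 4 (median 0.99), 7 had been higher on day 1 (median 0.23), and 5 were newly higher. Actc1, the cardiac actin that immature skeletal fibres use, read 7.36 and 7.13 in intact skin, 7.47 and 7.55 on day 1 and 9.53 and 9.98 on day 4. Myh3, the embryonic myosin, read 5.23 and 5.41, then 5.22 and 5.34, then 7.35 and 7.95. Mymk, the membrane protein that lets myoblasts fuse, read 7.23 and 7.14, then 7.23 and 7.37, then 8.27 and 8.79. In all 3 genes the day 1 arrays are near the intact level and both day 4 arrays stand clear above. Myl4, the embryonic light chain, and Chrng, the fetal subunit of the acetylcholine receptor, complete the 5. Ankrd1 was the 1 member that passed as lower on day 4 than on day 1 (−2.37, limma adjusted p = 0.0361). Its difference from intact skin was 4.455 on day 1 and 2.085 on day 4.

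The muscle stem cell factors Pax7 and Myf5 did not pass (differences of −0.07 and 0.11), nor did Myod1 (0.48), whereas Myog, which drives terminal differentiation, rose 2.03-fold. Day 4 replicate 2 was the higher of the 2 wound arrays, with a list median of 1.35 against 0.69 for replicate 1. Myog lost its call without either intact array. Without intact replicate 1 the 13 became 5, and without intact replicate 2 they became 6.

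**Figure D4:**
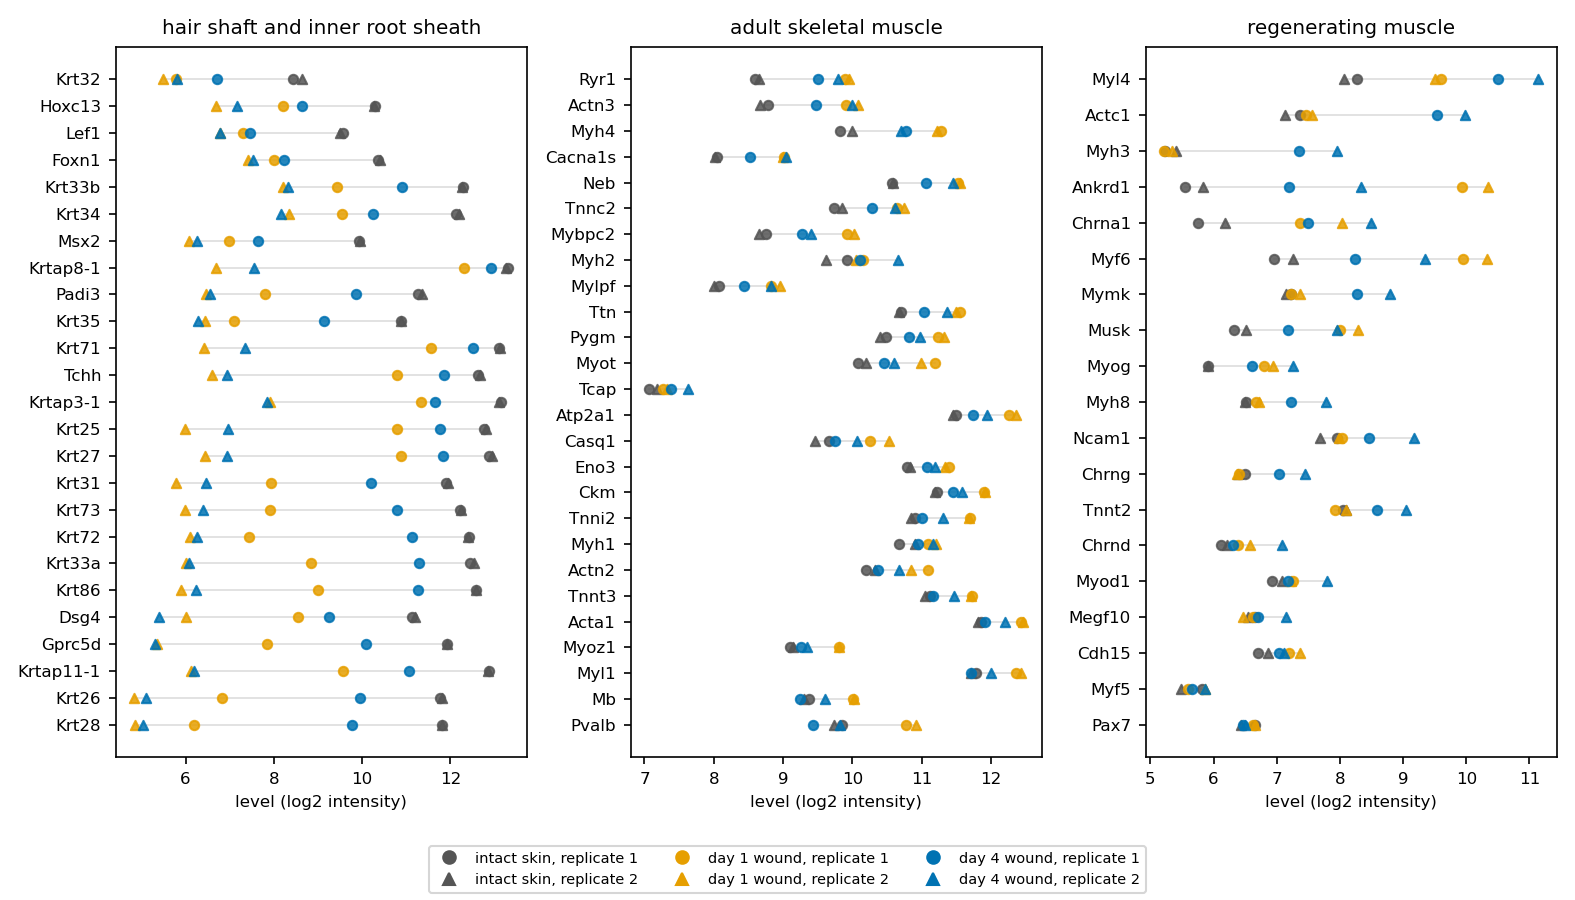
Log2 intensity on each of the 6 arrays (x axis) for each gene (rows) of the hair (25 genes), adult muscle (26) and regenerating muscle (19) lists, with colour for the group and shape for the replicate. In each wound group replicate 2 lies below replicate 1 for every hair gene, the adult muscle list is highest on day 1 (median difference from intact skin 0.83), and the regenerating muscle list on day 4 (median shifts of 0.69 and 1.35 on its 2 arrays).

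Of the 12 largest falls 7 were keratin or keratin-associated genes. Krtap5-5, a cuticle protein of the shaft, read 11.46 on both intact arrays, 8.74 on day 4 replicate 1 and 5.42 on replicate 2 (log2 difference −4.38, SE 1.07, adjusted p = 0.0268). The shaft keratin Krt39 read 11.01 and 11.13 in intact skin and 8.51 and 5.39 on day 4. Krtap24-1, Krtap26-1, Krtap10-10 and Krtap5-2 showed falls between 10.7-fold and 19.6-fold. Both day 4 arrays lie below intact skin in each, as the naming rule required, and replicate 2 always lies below replicate 1.

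Other names among the 12 were Gabrp, Stox1, Psors1c2 and Lyg2, at 10.6-fold to 11.8-fold lower. The keratin Krt82, of the shaft cuticle, read 10.89 and 10.93 in intact skin and 8.19 and 6.75 on day 4 (10.9-fold). Alox8, a lipoxygenase, read 10.51 and 10.45 against 7.68 and 6.35 (11.0-fold, adjusted p = 0.00170). Alox8 and Krt82 kept their calls without any single array. The other 10 lost theirs without intact replicate 1, 9 of them without intact replicate 2 and 5 without day 4 replicate 2, with adjusted p up to 0.16.

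In the list of 25 hair shaft and inner root sheath genes all 25 had a negative difference, with a median of −3.39, yet 7 passed. The 7 are the transcription factor genes Hoxc13, Lef1, Foxn1 and Msx2, which drive the shaft programme, and the keratins Krt32, Krt34 and Krt35. Foxn1 read 10.36 and 10.41 in intact skin and 8.24 and 7.52 on day 4, and Lef1 9.57 and 9.50 against 7.46 and 6.79. The other 18 did not pass in a fit whose spread is taken over all 6 arrays. Replicate 2 lay below replicate 1 in both wound groups. Krt71, an inner root sheath keratin, read 13.11 and 13.13 in intact skin, 12.51 on day 4 replicate 1 and 7.34 on replicate 2, and its day 1 replicates, at 11.56 and 6.41, are split in the same way.

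The median shift of the hair list was −1.63 on day 4 replicate 1 and −5.72 on replicate 2. Without replicate 1, 20 members passed as lower, and without either intact array 4 did. With the replicate number as a block 17 passed. That fit assumes a replicate difference shared by all groups, which the intact arrays, at median shifts of −0.01 and 0.01, do not show. What sets replicate 2 apart was not tested.

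Pigment genes were lower as well: of 8 melanocyte genes 4 passed as lower and none as higher (median −0.96). Tyrp1, an enzyme of melanin synthesis, read 10.52 and 9.32 in intact skin and 8.03 and 8.22 on day 4. Dct, Slc45a2 and the transcription factor Mitf passed too. The intact arrays are themselves apart for Tyrp1, Dct and Slc45a2, and the 4 became 1 without day 4 replicate 1 and 0 without day 4 replicate 2. The list median was −0.51 without intact replicate 1 and −1.44 without intact replicate 2.

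Of 13 sebaceous gland genes 6 were higher and 1 lower (median 0.43, and 0.03 on day 1). The wax synthase gene Awat1 rose 1.83-fold, Dgat2l6 1.95-fold and the lipid droplet gene Plin2 2.02-fold, while the melanocortin receptor Mc5r fell by 1.12. The 6 became 3, 2 and 3 without intact replicate 1, intact replicate 2 and day 4 replicate 2. Of 17 adipocyte genes 3 were lower and none higher (median −0.02, and above 0 without intact replicate 1 or day 4 replicate 1): leptin (Lep) fell by 0.91, the lipase Lipe by 0.63 and Thrsp by 0.52. The adiponectin gene Adipoq read 10.23 and 10.16 against 10.15 and 10.42. Without intact replicate 1 or day 4 replicate 1 the 3 became 1. Of 13 cholesterol synthesis genes 1 was higher (Cyp51) and 2 lower (the regulator Insig1, which fell by 1.09, and Mvk), with a median of −0.07. Cyp51 and Mvk lost their calls without either intact array. Of 7 Schwann cell genes, Cdh19 rose 2.74-fold and Mbp 1.25-fold and the myelin regulator Egr2 fell by 0.56 (median 0.20, and −0.02 without day 4 replicate 1). Mbp and Egr2 lost their calls without either intact array or day 4 replicate 2.

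Of 14 circadian clock genes 4 were higher (Ciart, Per1, Per2 and Clock) and Bhlhe41 was lower, with a median of 0.47 that was 0.25 without intact replicate 2 and 0.27 without day 4 replicate 2. Per2 read 7.89 and 7.41 in intact skin and 8.11 and 8.51 on day 4. Clock genes follow the time of day, and no time of sampling is in the labels. Per2 lost its call without intact replicate 2, day 4 replicate 2 or either day 1 array (adjusted p up to 0.191). Without day 4 replicate 2 the count was 2.

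Of 31 cell cycle genes 4 were higher than intact on day 4 and none lower (median 0.07), a share of higher genes no larger than that over all genes. On day 1, 15 had been lower (median −0.33), and 11 were higher on day 4 than on day 1. Mcm6, a subunit of the replicative helicase, read 8.04 and 8.01 in intact skin, 8.10 and 7.97 on day 1 and 8.62 and 8.55 on day 4. Mcm4, the replication clamp Pcna and the topoisomerase Top2a rose 1.40-fold, 1.33-fold and 1.26-fold.

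Mki67, a marker of cycling cells, read 9.73 and 9.64 in intact skin, 9.17 and 8.92 on day 1 and 9.64 and 9.61 on day 4, so that only the day 1 arrays are low. The helicase gene Mcm2 read 8.09 and 8.14 on day 1 and 8.61 and 8.63 on day 4, with a day 4 difference of 0.17 from intact skin, and neither gene passed on day 4. Outside the list, and chosen after their values were seen, Hells, Aspm and Parpbp passed as lower on day 1 and as higher on day 4, the latter by 0.25 to 0.30, calls that Hells and Parpbp lost in all 6 fits with 1 array left out and Aspm in 4 (adjusted p up to 0.17). Prc1, Ncapg2 and Smc2, genes of cell division also chosen after their values were seen, had not passed on day 1 and were newly higher, by 0.56, 0.46 and 0.44 over intact skin (Ncapg2 lost this call without intact replicate 1, and Smc2 without either intact array or day 4 replicate 2). The 4 became 2, 1 and 2 without intact replicate 1, intact replicate 2 and day 4 replicate 1. The letters TTTGAA and ATTGG are those of the cell cycle homology element and the inverted CCAAT box of mitotic promoters. They were present for 13 and 21 of 25 listed genes with a sequence (52.0% and 84.0%), against 17.3% and 41.7% of all 15562 genes. The list was chosen by known function, so these shares describe the letters and test nothing about these wounds.

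The 8 largest of the genes newly higher on day 4 are described first. Sfrp2, a secreted Wnt modulator of fibroblasts, read 7.06 and 7.65 in intact skin, 7.54 and 7.80 on day 1 and 10.37 and 10.63 on day 4 (8.85-fold over intact, adjusted p = 0.000335, and 2.83 over day 1, adjusted p = 0.00901). Its day 1 arrays are within the intact range or just above it, and the day 4 arrays stand apart. Tmprss11b, a serine protease of squamous epithelia, read 4.47 and 4.52, then 4.94 and 4.58, then 7.04 and 6.86, having lain under the lower quartile before day 4. Stfa3 read 5.72 and 5.89, then 9.39 and 9.71, then 10.86 and 11.00. It and Sprr2b, Krt16 and Myl4 were already higher on day 1 and went up further, by 1.38, 1.17, 0.42 and 1.26.

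All 8 largest, which also include Actc1 and Myh3, stayed higher than intact skin without any single array. Their difference from day 1 is less secure: Tmprss11b kept this call in all 6 fits with 1 array left out, Actc1 in 5, Sfrp2 in 4, Myh3, Myl4, Sprr2b and Stfa3 in 2 each, and Krt16 in none (adjusted p up to 0.205 over the 8), although the sign was the same in all 6 for each gene. Of the 121 newly higher genes 86 had not passed on day 1 and 26 had passed as higher.

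Other newly higher genes, chosen after their values were seen, include Cthrc1, a secreted protein of activated fibroblasts, which read 7.85 and 7.85, then 8.06 and 8.05, then 9.62 and 9.67. Matrix and stromal genes among them were Lrrc17 (4.14-fold over intact), Srpx2 (3.10-fold), Tnn (3.05-fold), Ogn (1.82-fold, lost without either intact array or day 4 replicate 1) and Aspn (1.69-fold). Vcam1, an adhesion receptor for leukocytes, was 3.45-fold and Hpse, which cleaves heparan sulfate, 3.52-fold over intact. The epidermal proteases Klk13 and Klk8 were 4.41-fold and 2.47-fold higher. Slow and embryonic muscle genes Tnnc1 and Tnni1 were 2.28-fold and 1.91-fold higher, and the lysosomal hexosaminidase chain Hexa 3.23-fold. Part of these folds was already there on day 1. Vcam1, Hpse and Hexa had passed then, at 2.23-fold, 2.30-fold and 1.98-fold over intact. They rose 1.55-fold, 1.53-fold and 1.63-fold from day 1 to day 4. Klk13, Klk8, Srpx2 and Tnn had also passed as higher on day 1, at 1.99-fold, 1.63-fold, 1.64-fold and 1.53-fold.

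Few genes were newly lower. Scgb1a1, a secretoglobin, read 7.61 and 7.54 in intact skin, 7.30 and 6.68 on day 1 and 5.47 and 5.88 on day 4 (a fall by 1.90 from intact). Serpinb13, a protease inhibitor of keratinocytes, fell by 1.45 (7.09 and 7.20 to 5.70 and 5.69). Alpl, the alkaline phosphatase, read 8.48 and 9.01 on day 1 against 8.22 and 8.26 in intact skin and did not pass there (limma adjusted p = 0.113). On day 4 it lay below intact skin, at 7.27 and 6.84. The remaining members of the 8 largest, Abtb2, Olr1, Midn, Procr and Aldoart1, fell by 0.48 to 0.84. Alpl lost its call against intact skin without either intact array and kept its call against day 1 in 1 of 6 fits, without day 1 replicate 1. The other 7 kept the call against day 1 in none of them.

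**Figure D5:**
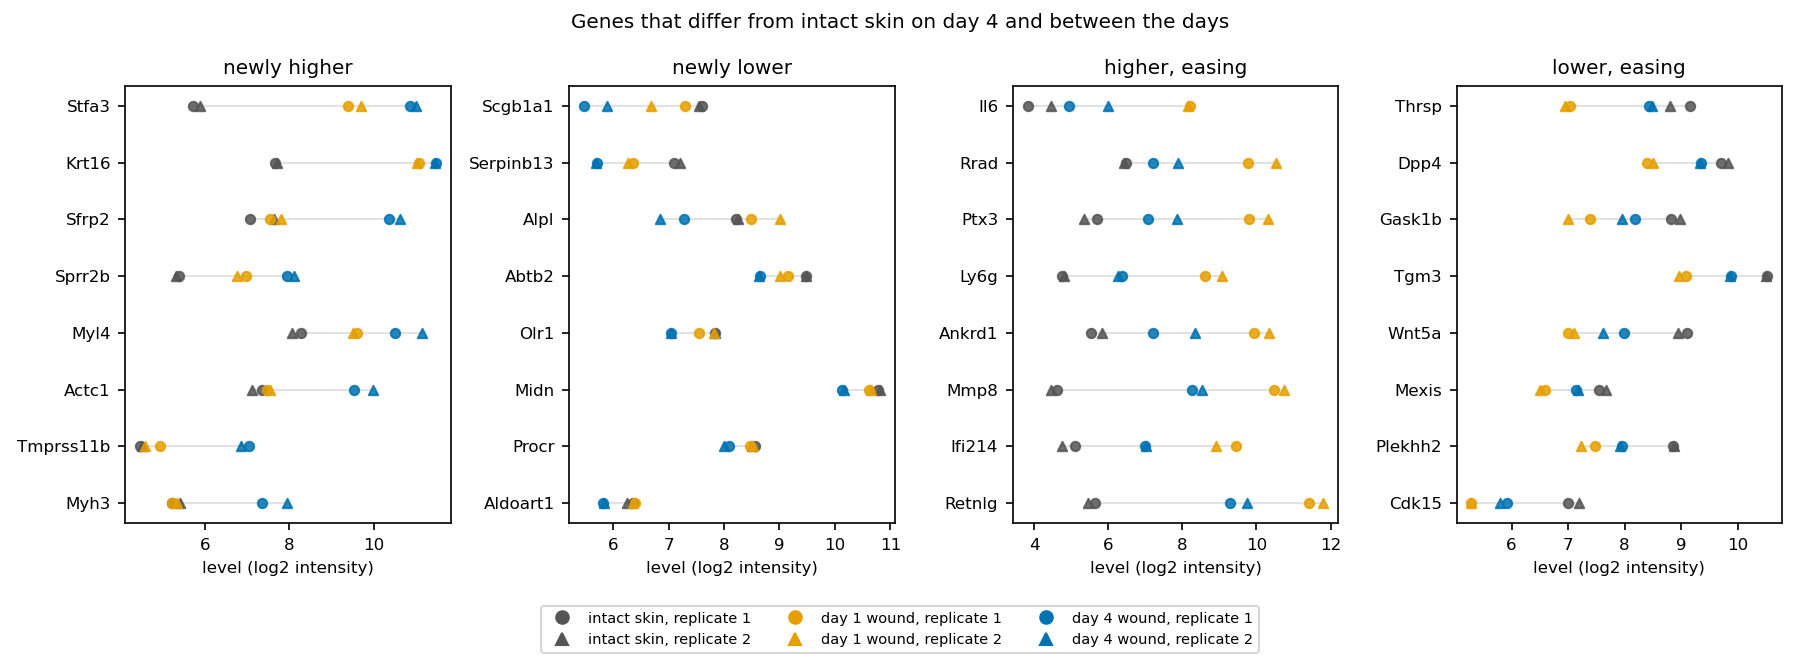
Log2 intensity (x axis) of 8 genes (rows) in each of 4 panels, with a point for each array, colour for the group and shape for the replicate, and a grey line over each gene's range. By definition, newly higher genes (Sfrp2) lie above day 1, newly lower genes (Scgb1a1) below it, and easing genes move back toward intact skin. Mmp8, an easing gene, read 8.27 and 8.52 on day 4 after 10.47 and 10.74 on day 1.

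A larger group had eased but still differed: 135 genes (0.677%) were higher than intact and lower than on day 1, and 17 (0.0853%) were lower than intact and higher than on day 1. Mmp8 read 4.60 and 4.45 in intact skin, 10.47 and 10.74 on day 1 and 8.27 and 8.52 on day 4. Il6, the pleiotropic cytokine, read 3.82 and 4.46, then 8.21 and 8.15, then 4.95 and 6.00. Ptx3, a soluble pattern receptor, read 5.70 and 5.34, then 9.80 and 10.30, then 7.07 and 7.86. For each of these the day 4 arrays lie between the other groups without overlap.

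Rrad, Ly6g, Ankrd1, Ifi214 and Retnlg complete the 8 with the largest drop, of 2.10 to 2.60 from day 1. Ly6g, the marker used to sort neutrophils, and Mmp8 kept the call against day 1 in all 6 fits with 1 array left out. Ifi214 kept it in 3, Retnlg and Rrad in 2 each, and Ankrd1, Il6 and Ptx3 in 1 each (adjusted p up to 0.196). Il6, Rrad and Ankrd1 lost the call against intact skin in some, Il6 in 5 of 6, Rrad in 3 and Ankrd1 without intact replicate 1. Among genes recovering from a fall were Thrsp (9.15 and 8.81, then 7.03 and 6.94, then 8.43 and 8.49), Dpp4, Tgm3 and Wnt5a. None of the 8 recovering genes kept its call against day 1 in all 6 fits.

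Genes that had passed on day 1, moved back by the test between the wounds and did not pass on day 4 numbered 68 from above (0.341%) and 74 from below (0.371%). The acute phase genes Saa2 (5.05 and 4.56, then 7.31 and 8.16, then 4.93 and 5.90) and Lrg1 (9.30 and 9.59, then 10.82 and 11.38, then 9.28 and 9.76) came down to within or near the intact range. So did the muscle stress genes Hspb7 and Xirp1, Xirp1 at 7.39 and 7.70, then 9.41 and 9.14, then 7.35 and 7.52. From below, Stmn1, a microtubule regulator of dividing cells, read 10.45 and 10.31, then 9.49 and 9.27, then 10.30 and 10.20. These examples were chosen after their values were seen, and a p that misses the threshold on day 4 does not show that the level was restored.

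In the opposite case, 11 genes (0.0552%) passed against intact skin on both days with opposite signs. Rptn had the largest swing among them. Itgbl1 read 8.67 and 8.62, then 8.29 and 8.36, then 9.25 and 9.30, and the neuropeptide gene Calcb 7.15 and 7.14, then 7.74 and 7.72, then 6.75 and 6.88. Calcb lost its day 4 call without either intact array or day 4 replicate 1.

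MicroRNA genes were a class the lists did not hold, looked at after values were seen. A microRNA represses transcripts that pair with its seed, bases 2 to 8. The array carries probe sets named for 296 microRNA genes, which report RNA from the gene region in total RNA and not the mature form. Of them 13 were higher and 25 lower, where 14.8% and 12.1% of all genes were, with a median of −0.05, and 17 of those that passed lay under the lower quartile on at least 1 intact and 1 day 4 array.

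The mature sequences below, from RefSeq with build GRCm38.p6, show the seeds of members that moved. The miR-181 and the miR-15 and miR-16 sequences are shown because they share a seed within each set, and the other two, each with a seed of its own, because they are microRNAs of immune cells. Capitals mark the seed.
mmu-miR-181a-5p: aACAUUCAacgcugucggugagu
mmu-miR-181b-5p: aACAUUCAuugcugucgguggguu
mmu-miR-181c-5p: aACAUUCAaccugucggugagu
mmu-miR-15a-5p: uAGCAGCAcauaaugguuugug
mmu-miR-15b-5p: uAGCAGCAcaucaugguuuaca
mmu-miR-16-5p: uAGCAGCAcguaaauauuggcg
mmu-miR-497a-5p: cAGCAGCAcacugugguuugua
mmu-miR-155-5p: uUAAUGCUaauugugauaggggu
mmu-miR-142a-3p: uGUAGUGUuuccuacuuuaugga

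The seed ACAUUCA belongs to 6 measured genes of the miR-181 family, of which 4 were lower and none higher. Mir181b-1 read 8.61 and 8.70 in intact skin, 7.10 and 7.08 on day 1 and 7.28 and 7.23 on day 4 (a fall by 1.40, SE 0.07, adjusted p = 0.000184). Mir181a-1, Mir181b-2 and Mir181c fell by 1.15, 0.61 and 0.34. Mir181a-1 and Mir181b-1 lie close together on chromosome 1, as do Mir15a and Mir16-1 on chromosome 14. The members of each pair may therefore not be separate readings. The wound arrays of both days lie below the intact arrays for Mir181b-1 and the replicates are close. The seed AGCAGCA belongs to 6 genes, of which Mir15a, Mir15b and Mir16-1 rose by 0.54, 0.40 and 0.57 and Mir497 fell by 0.36, so genes with 1 seed went both ways. Apart from Mir15a, these and Mir181c lost their calls without intact replicate 1 and day 4 replicate 1 alike, with adjusted p up to 0.196. Mir155 and Mir142, of immune cells, rose by 0.63 and 0.97, the former reading 6.45 and 6.27 in intact skin, 7.43 and 7.41 on day 1 and 6.92 and 7.05 on day 4. Mir203, a microRNA of differentiated epidermis, and Mir31 fell by 0.68 each. Mir142, Mir203 and Mir31 lost their calls without intact replicate 2, and Mir181b-2 without intact replicate 1.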

How the data were processed

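Total RNA of 6 skin biopsies, 2 per group, was hybridised to Affymetrix mouse gene arrays. The deposited table gives a log2 intensity for each probe set, computed with RMA per the submitters' processing notes; their software, version and genome build are not given in the sources used here. RMA ties the quantiles of the arrays together, so a shift shared by most genes would not be seen, and values are deposited to 2 decimals. Of 35556 probe sets, 21789 pair with 1 gene symbol in the platform annotation, 1621 with several and 12146 are not listed there. The brightest probe set of each of 19938 genes was used. Of 999 genes with more than 1 probe set, 6 were called in opposite directions by different ones. Groups were taken from the titles. Group means were fitted on all 6 arrays, which share 1 estimate of the spread (3 residual and 3.4 prior degrees of freedom), with limma 3.58.1 in R 4.3.3 (lmFit, eBayes) and 3 contrasts. P-values were adjusted by Benjamini-Hochberg over all genes, with a threshold of 0.05, and the fit was tested on simulated data. The number of arrays limits the precision. Dim signal was not tested against background.

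Gene lists (34, with 586 of 629 members on the array) and the members named were chosen with earlier results of these data known. Genes were named by a rule: the 12 largest rises and 12 largest falls without overlap, excluding provisional names; the 8 largest newly higher and newly lower; the 8 largest moves back from day 1 in each direction; up to 6 members of a list with the smallest p and members that passed against most of their list; and 7 tissue markers. Other members were chosen after their values were seen. Sequences came from RefSeq tables of build GRCm38.p6, with promoter windows for 15562 genes, in Python 3.11.15. Sequences on 1 chromosome were left out, so the motif shares do not cover its genes. Alternatives were quantile, cyclic loess and median scaling, a mean-variance trend, a robust prior, only the groups compared, no dimmest 30% of genes, the mean of a gene's probe sets, the replicate number as a block, and each array left out.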

Additional observations from a re-analysis of the deposited data

Results flagged for a closer look

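Genes named by rule whose change from intact skin differed between day 1 and day 4 are listed with the log2 difference of day 4 from day 1 that the limma fit tested (Benjamini-Hochberg adjusted p under 0.05). Of the 32 newly different or easing genes named by rule, all but Tmprss11b, Ly6g and Mmp8 lost this call in at least 1 of the 6 fits with 1 array left out.

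Higher on day 4 were the muscle genes Myh3 by 2.37, Actc1 by 2.25, Myl4 by 1.26, Mymk by 1.23 and Chrng by 0.85. The epidermal genes Rptn, Tmprss11b, Casp14, Sprr2b, Tgm3 and Krt16 were higher by 2.94, 2.19, 1.22, 1.17, 0.85 and 0.42, and Stfa3 by 1.38. Of stromal genes, Sfrp2 was higher by 2.83, Col14a1 by 1.08, Dpp4 by 0.89, Wnt5a by 0.75, Col5a2 by 0.57 and Col5a1 by 0.52. Lipid genes Thrsp and Elovl3 were higher by 1.47 and 0.74. Immune genes C1qa, Cd4 and C1qc were higher by 0.88, 0.71 and 0.57. Gask1b (0.88), Mexis (0.61), Plekhh2 (0.58), Cdk15 (0.57), Mcm6 (0.55) and Bhlhe41 (0.50) were higher too.

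Lower on day 4 were Il6 by −2.71, Ptx3 by −2.58, Ly6g by −2.52, Mmp8 by −2.21, Ifi214 by −2.18 and Retnlg by −2.10. Rrad and Ankrd1 differed by −2.60 and −2.37 and the adult muscle genes Mybpc2 and Myh4 by −0.63 and −0.52. Of other immune genes, Csf3r differed by −1.10, Cd14 by −1.07, Clec4e by −0.95, Ccl12 by −0.92 and Oas2 by −0.58. The newly lower genes differed by −1.69 (Alpl), −1.32 (Scgb1a1), −0.63 (Olr1), −0.62 (Serpinb13), −0.55 (Aldoart1), −0.50 (Midn), −0.46 (Procr) and −0.45 (Abtb2).

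Among probe sets the platform annotation does not pair with a gene, 621 were higher and 732 lower on day 4 than in intact skin.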

How the results depend on the processing

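The counts ranged more widely with 1 array left out than over the scalings. Such a fit leaves 1 array in a group and has fewer residual degrees of freedom, so it does not separate the array from lost power. The counts between the wounds also fell without an intact array, which is not part of that contrast. With 1 array left out, genes higher on day 4 than in intact skin numbered 1393 to 2760 and genes lower 853 to 2147. Those that had also passed on day 1 numbered 1104 to 2047 and 720 to 1461. Genes higher on day 4 than on day 1 then numbered 4 to 67, genes lower 5 to 117, newly higher genes 4 to 34 and newly lower genes 0 to 8. A fit on only the groups compared, which has fewer residual degrees of freedom, called 8 genes higher and 9 lower than on day 1, 7 newly higher and 0 newly lower. Newly lower genes numbered 30 with cyclic loess and 30 with a mean-variance trend, against 19, and the cause was not tested. Among called genes the share that was higher, 55.1%, lay between 50.7% and 58.8% over the scalings. The replicate numbers do not pair day 4 with intact skin: deviations of same-numbered arrays correlated at 0.0227, and at 0.6853 between day 4 and day 1. With the replicate number as a block, genes higher and lower than intact skin were 3026 and 2471, those higher and lower than on day 1 235 and 348. Of 229 named genes that passed, 226 kept their call under quantile scaling, 227 under cyclic loess, 217 with a robust prior, 168 and 171 without intact replicate 1 and 2, and 188 without day 4 replicate 2, and none changed sign under the alternatives run. List medians changed sign for B cell, Schwann cell, adipocyte and basal keratinocyte genes under at least 1 alternative. Signal near the lower quartile limits the folds of genes dim in intact skin.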

Other observations

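The imprinted Dlk1-Dio3 region, active in fetal and regenerating muscle, was looked at after its values were seen. Of 40 microRNA genes of the region 6 were higher on day 4 than in intact skin and none lower, a share near the 14.8% of all genes that were higher, with a median log2 difference of 0.08, and 27 of the 40 differences were above 0. Of the other 256 microRNA genes 7 were higher and 25 lower, with a median of −0.06, and 80 were above 0. The region's microRNA probe sets are dim, with a median level of 4.47 against 5.49. Each of the 6 (Mir300, Mir369, Mir377, Mir380, Mir381 and Mir382) lost its call in 1 to 5 of the 6 fits with 1 array left out. Of the 7 other genes of the region 3 were higher and 1 lower, with a median of 0.0. The long noncoding gene Meg3 read 9.14 and 9.15 in intact skin, 8.91 and 8.97 on day 1 and 9.47 and 9.60 on day 4, and DQ267102 read 8.10 and 8.38, then 8.32 and 8.69, then 9.30 and 9.58. Rian rose by 0.72, whereas Dio3, at the far end of the region, fell by 1.11. Dlk1, Rtl1 and DQ267101 did not pass, with differences of −0.07, −0.06 and 0.0. With 1 array left out, Meg3 lost its call without either intact array or day 4 replicate 2, Rian without intact replicate 2, and Dio3 without intact replicate 2 or day 4 replicate 2.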
